A study of Rattus norvegicus with 8 samples.

Results

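The 10 skeletal muscle genes Acta1, Myh8, Myl1, Myl11, Tnnc2, Tnnt3, Tnni2, Ckm, Atp2a1 and Mb were followed through 8 rat livers. They are 10 of the 14213 genes measured, and 11 of the 31042 probe sets (short groups of array probes that read 1 transcript) were annotated to exactly 1 of them. The genes were chosen because their signal stood out in 1 liver, that of the second rat of the Lactobacillus group, so that liver's excess over the others is described here without a test. All rats were male Sprague-Dawley rats, 7 weeks old, with 1 array per liver. Per the series' design text, control rats (4 arrays here) spent 2 weeks on CRF-1 chow enriched, per kg, by 10 g of cholesterol and by 5 g of cholic acid. The L. brevis rats (4 arrays) had the same food plus freeze-dried live Lactobacillus brevis119-2 at 10 g per kg, a lactic acid bacterium from turnip. Control arrays carry a source label that mentions CRF-1 only; here the design text is taken as right. The arrays came from groups of 11 rats, and the labels call those of a group biological replicates. Rats are named below as control 1 to 4 and L. brevis 1 to 4, after the labels' replicate numbers. Values are log2 signals as deposited, and 1 log2 unit is a doubling.

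Skeletal muscle contracts when myosin motors of the thick filament pull on actin of the thin filament. Calcium released from the sarcoplasmic reticulum binds troponin C. Through troponin I and troponin T, this lets tropomyosin move off the actin sites where myosin binds. Fast and slow fibres use different genes for myosin, its light chains, the troponins and the calcium pump. Hepatocytes are not contractile and are not known as a source of these sarcomere proteins.

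In L. brevis 2 all 10 varying probe sets of the 10 genes had their highest value of the 8 livers, and 9 of them, 1 each for every gene but Atp2a1, exceeded every other liver by more than 1 log2. Over all probe sets 0.106% did so, 33 of 31042, and these can only lie among the 6323 that varied. Over all varying probe sets L. brevis 2 was the highest liver in 7.1%. A varying probe set is one whose values spanned more than 0.01 log2 over the arrays, as 6323 probe sets did. The other 24719 spanned at most 0.01 log2, which is called holding 1 value on all arrays here. Where this came from was not tested, and it says nothing about equal expression. Since the genes were chosen on this contrast, nothing further is read from these shares.

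Among the filament proteins, Acta1, the actin of skeletal muscle thin filaments, had the largest excess. Its log2 signal was 5.35, 5.54, 5.46 and 5.08 in control 1 to 4 and 5.34, 12.45, 5.48 and 5.29 in L. brevis 1 to 4. L. brevis 2 was thus 6.91 log2 above the highest other liver, and 138-fold above their median. Folds here are ratios of the readings, and whether the lower readings lie above background was not tested, so they do not give exact ratios of transcript. The other 7 livers lay within 0.46 log2 of one another, with the diets mixed.

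Myh8 encodes the perinatal myosin heavy chain, a motor of developing fibres that some specialised adult muscles keep. It read 5.90, 5.61, 5.86 and 5.69 in control 1 to 4 and 5.71, 11.38, 5.88 and 6.03 in L. brevis 1 to 4. Only L. brevis 2 stood apart, 5.35 log2 above the next liver and 45.9-fold above the median of the others. Myosin heavy chain genes are close in sequence, so a probe set named for 1 of them may read transcripts of another, and this signal cannot be assigned to the perinatal form with certainty.

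The fast light chains followed. Myl1, which encodes the alkali light chains of fast myosin, had 5.34, 5.65, 5.39 and 5.48 in control 1 to 4 and 5.49, 10.51, 5.73 and 5.46 in L. brevis 1 to 4. Myl11 (Mylpf), the regulatory light chain of fast fibres, had 5.84, 5.77, 5.72 and 5.76 in the control livers and 5.81, 10.05, 5.85 and 5.93 in the L. brevis livers. The excess of L. brevis 2 over the next liver was 4.78 log2 for Myl1 and 4.12 log2 for Myl11, and over the median of the others 32.6-fold and 18.9-fold.

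The 3 subunits of fast troponin were all highest in L. brevis 2, by different amounts. Tnnc2, the calcium sensor, read 6.34, 6.28, 6.59 and 6.22 in control 1 to 4 and 6.17, 10.09, 6.32 and 6.21 in L. brevis 1 to 4, an excess of 3.51 log2. Tnnt3, which ties troponin to tropomyosin, read 5.97, 5.98, 5.996 and 6.12 in the control livers and 5.74, 8.49, 5.92 and 5.61 in the L. brevis livers at its varying probe set. That was an excess of 2.37 log2. The second and brighter Tnnt3 probe set stood at 6.29 on every array and so carried no measured difference. Tnni2, the inhibitory subunit, read 6.54, 6.38, 6.55 and 6.42 in the control livers and 6.54, 8.25, 6.53 and 6.83 in the L. brevis livers, an excess of 1.42 log2. In none of the 3 did another liver come near L. brevis 2, the closest being L. brevis 4 for Tnni2.

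Genes of oxygen, energy and calcium handling ranged from a clear excess to almost none. Mb, the oxygen-binding myoglobin of oxidative fibres and heart, read 6.06, 6.16, 6.36 and 5.999 in control 1 to 4 and 6.13, 9.07, 6.03 and 6.17 in L. brevis 1 to 4. Its excess of 2.71 log2 lay between those of Tnnc2 and Tnnt3. Ckm, the muscle creatine kinase that buffers ATP, reached 7.78 in L. brevis 2 against 6.11 to 6.49 in the other livers, an excess of 1.29 log2. Atp2a1, the calcium pump of fast sarcoplasmic reticulum, had 6.77 in L. brevis 2 against 6.43 to 6.58 elsewhere. Its excess of 0.19 log2 is little more than the 0.15 log2 range of the other livers. Of the 10 genes, Ckm was the closest above the 1 log2 limit used here, and Atp2a1 was the 1 gene with no probe set above it. Over the brightest probe sets of the 10 genes the median excess over the next liver was 3.11 log2.

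**Figure D1:**
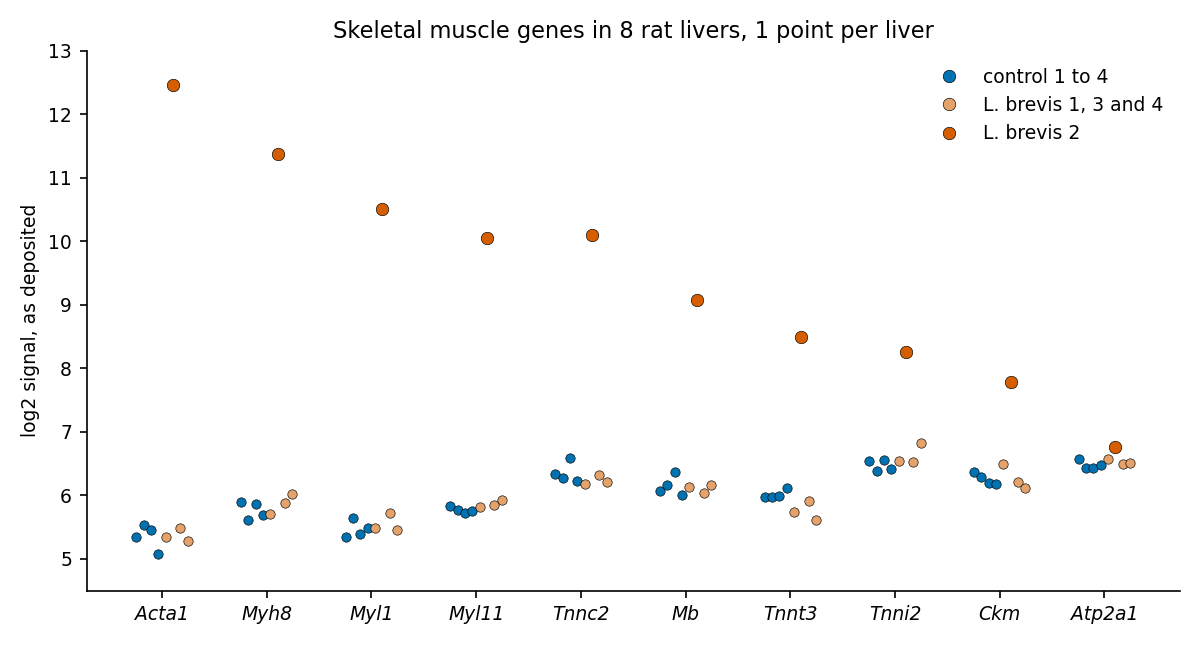
Log2 signal (vertical axis) of the 10 skeletal muscle genes (horizontal axis, ordered by the excess of L. brevis 2 over the median of the other livers) at their varying probe sets, with 1 point per liver. L. brevis 2 runs from 12.45 for Acta1 down to 6.77 for Atp2a1, while all other livers lie between 5.08 and 6.83.

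The size of an excess depends on how each probe set responds as well as on the transcript, so the order of the genes is an order of these readings and not of messenger RNA amounts. The excesses of neighbouring genes in this order cannot be tested, since only 1 liver carries them. Over the 8 livers the genes correlated closely with one another (median Pearson r 0.977 over 45 pairs), which reflects that 1 liver. Over the other 7 livers the median r was -0.088, with 18 pairs positive and 27 negative. Their SD over those 7 livers ranged from 0.06 to 0.17 log2 (median 0.14), against a median of 0.25 for all varying probe sets. The mean of the 10 genes was 9.48 in L. brevis 2 and 5.94 to 6.05 in the other livers.

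RefSeq start-site windows were read for these genes, since they were high together in 1 liver: 250 bases before to 50 after each annotated start, build GRCr8. Entries matched 9 of the 10 genes, with 2 for Myl1 and none for Tnnt3. Both strands were searched for the E-box CANNTG bound by MyoD-family factors, the TATA element TATAAA, the MCAT element CATTCC, the CArG box bound by SRF and the MEF2 site. A stretch that matched more than 1 motif was counted under each. An E-box was found in 9 of the 10 windows (72.1% of all 33469 windows hold one), TATAAA in 4 (14.2%), CATTCC in 1 (14.2%), a CArG box in 1 (1.64%) and a MEF2 match in 1 (3.29%). The windows shown are those of Acta1, which has the largest excess and holds the CArG match, both starts of Myl1, of which the inner holds the MEF2 match, Tnnc2, and Mb with the most E-boxes. They were chosen after the matches were seen. Capitals mark matches to the E-box, TATAAA, the CArG box and the MEF2 site. A match is a stretch of letters and does not show that a factor binds there.
Acta1, chr19:68784145-68784444, minus strand: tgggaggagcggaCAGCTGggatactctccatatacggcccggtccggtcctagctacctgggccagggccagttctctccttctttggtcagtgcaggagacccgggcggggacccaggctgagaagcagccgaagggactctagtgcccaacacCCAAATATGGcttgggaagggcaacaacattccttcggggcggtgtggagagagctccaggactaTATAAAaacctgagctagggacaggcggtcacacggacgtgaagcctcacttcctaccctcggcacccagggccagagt
Myl1 outer start, chr9:75907647-75907946, minus strand: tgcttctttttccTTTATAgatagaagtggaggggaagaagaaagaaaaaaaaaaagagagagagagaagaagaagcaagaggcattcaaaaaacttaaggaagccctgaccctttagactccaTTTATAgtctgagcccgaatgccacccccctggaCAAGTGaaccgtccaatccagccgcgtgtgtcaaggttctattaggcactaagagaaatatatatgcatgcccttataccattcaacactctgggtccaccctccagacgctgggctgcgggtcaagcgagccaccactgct
Myl1 inner start, chr9:75897750-75898049, minus strand: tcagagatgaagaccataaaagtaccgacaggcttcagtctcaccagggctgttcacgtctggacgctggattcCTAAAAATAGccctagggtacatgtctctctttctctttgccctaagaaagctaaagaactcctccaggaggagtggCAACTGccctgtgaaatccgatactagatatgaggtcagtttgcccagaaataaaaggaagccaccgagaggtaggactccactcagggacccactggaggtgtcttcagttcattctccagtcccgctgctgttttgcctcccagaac
Tnnc2, chr3:173935290-173935589, minus strand: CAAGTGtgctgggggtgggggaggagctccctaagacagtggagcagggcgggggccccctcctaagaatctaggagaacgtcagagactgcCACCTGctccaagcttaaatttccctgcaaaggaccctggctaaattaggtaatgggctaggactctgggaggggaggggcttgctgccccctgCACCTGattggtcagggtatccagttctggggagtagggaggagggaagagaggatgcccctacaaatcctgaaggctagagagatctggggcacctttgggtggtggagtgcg
Mb, chr7:110647693-110647992, minus strand: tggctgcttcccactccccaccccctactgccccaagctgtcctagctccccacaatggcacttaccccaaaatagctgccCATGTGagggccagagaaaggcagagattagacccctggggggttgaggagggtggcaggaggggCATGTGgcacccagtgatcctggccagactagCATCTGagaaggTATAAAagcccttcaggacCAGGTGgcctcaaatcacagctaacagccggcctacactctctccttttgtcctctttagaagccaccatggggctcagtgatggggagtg

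The fibre-type partners of these genes show which isoforms were seen. Of 9 other fast fibre genes measured, 4 varied, and 1 passed the 1 log2 limit in L. brevis 2. This was Myh2, the heavy chain of fast oxidative fibres, at 7.08 against 5.57 to 5.96 in the other livers. Casq1, the calcium store protein of fast fibres, had 6.45 against 5.80 to 6.11, and Actn3, the fast Z disc actinin, 6.38 against 6.21 to 6.32. Myh1 at its brightest probe set read 11.31 in L. brevis 2, inside the range of the other livers (10.40 to 11.32). Its other varying probe sets differed from the next liver by -0.53 to 0.12. As for Myh8, these probe sets may read other transcripts, so their signal in every liver cannot be assigned to Myh1 with certainty. Myh4, the heavy chain of the fastest fibres, Pvalb, a calcium buffer of fast fibres, Mybpc2, Mylk2 and Myoz1 held 1 value on all arrays. Their expression in L. brevis 2 could not be measured.

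Slow fibre genes were read in the same way, with no test of fast against slow. Of 9 measured 3 varied, all highest in L. brevis 2 (as 7.17% of all varying genes were), and 2 passed the 1 log2 limit. Myoz2, a Z disc protein of slow and cardiac fibres, had 6.98 against 5.67 to 5.86 in the other livers. Myl3, the alkali light chain of slow and ventricular myosin, had 7.72 against 6.16 to 6.66. Mybpc1, the slow myosin-binding protein C, had 6.51 against 6.20 to 6.37. The slow partners Myh7, Myl2, Tnnc1, Tnnt1 and Tnni1 each held 1 value on all 8 arrays. All 3 fast troponin genes thus had a measured excess, while for their slow counterparts no difference could be measured in either direction. Atp2a2, the pump of slow fibres and of most other cells, had 10.20 in L. brevis 2 against 10.16 to 10.58 elsewhere at its brightest probe set.

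All 8 developing muscle genes measured were at 1 value, among them the embryonic heavy chain gene Myh3 and the regulators Myod1 and Myog. So were all 9 heart genes measured, such as Myh6, Tnnt2, Tnni3 and Nppa. A probe set shared by the annotation between Acta2 and Actc1 had 8.01 in L. brevis 2 against 6.18 to 6.41, and was picked out after its values were seen.

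Some sarcomere scaffold genes were high in L. brevis 2 as well, though most carried no measured difference. In the filament and Z disc list 22 genes were measured and 7 varied at their brightest probe set. Of these, 6 were highest in L. brevis 2 (as 7.17% of all varying genes were), 2 of them by more than 1 log2. Ttn, the titin spring of the sarcomere, had 7.73 against 6.09 to 6.41, and Klhl41, a thin filament stabiliser, had 7.09 against 5.71 to 5.96. Neb, the nebulin ruler of the thin filament, had 8.43 against 5.38 to 5.70 at a probe set that is not its brightest. A Tpm1 tropomyosin probe set had 9.18 against 5.51 to 5.97, and the others that varied differed from the next liver by -0.77 to 0.80. Both were picked out after their values were seen, and that Tpm1 probe set is of the kind whose probes can match other transcripts. Tpm2 was the exception of this list at 7.23, inside the range of 6.33 to 8.33.

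Of 14 excitation and calcium genes 2 varied at their brightest probe set. Sln, sarcolipin, an inhibitor of the calcium pump, had 7.97 in L. brevis 2 against 6.33 to 6.70. Stac3, a partner of the muscle calcium channel, had 7.47 against 5.76 to 11.64, with its highest value in L. brevis 4. Of 14 muscle energy genes 2 varied, Eno3, the muscle enolase, at 7.72 against 6.32 to 6.76, and Cox6a2 at 6.57 against 6.30 to 6.41. Over all genes measured, 0.176% passed the 1 log2 limit at their brightest probe set, against 8 of the 10 chosen genes, 1 of 9 fast, 2 of 9 slow, 2 of 22 filament, 1 of 14 calcium and 0 of 14 energy genes. All medians over these other lists were 0.00, since most members held 1 value. Over varying members the median excess over the median of the other livers was 3.82 for the chosen genes and -0.04 for all varying genes. It was 0.37 for fast, 1.21 for slow, 0.55 for filament, 0.34 for calcium and 0.65 for energy genes. Outside muscle, the blood list had 2 of 5 genes past the 1 log2 limit, Hbb and Pf4. Its median over varying members was 1.77, above those of the fast, slow, filament, calcium and energy lists.

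**Figure D2:**
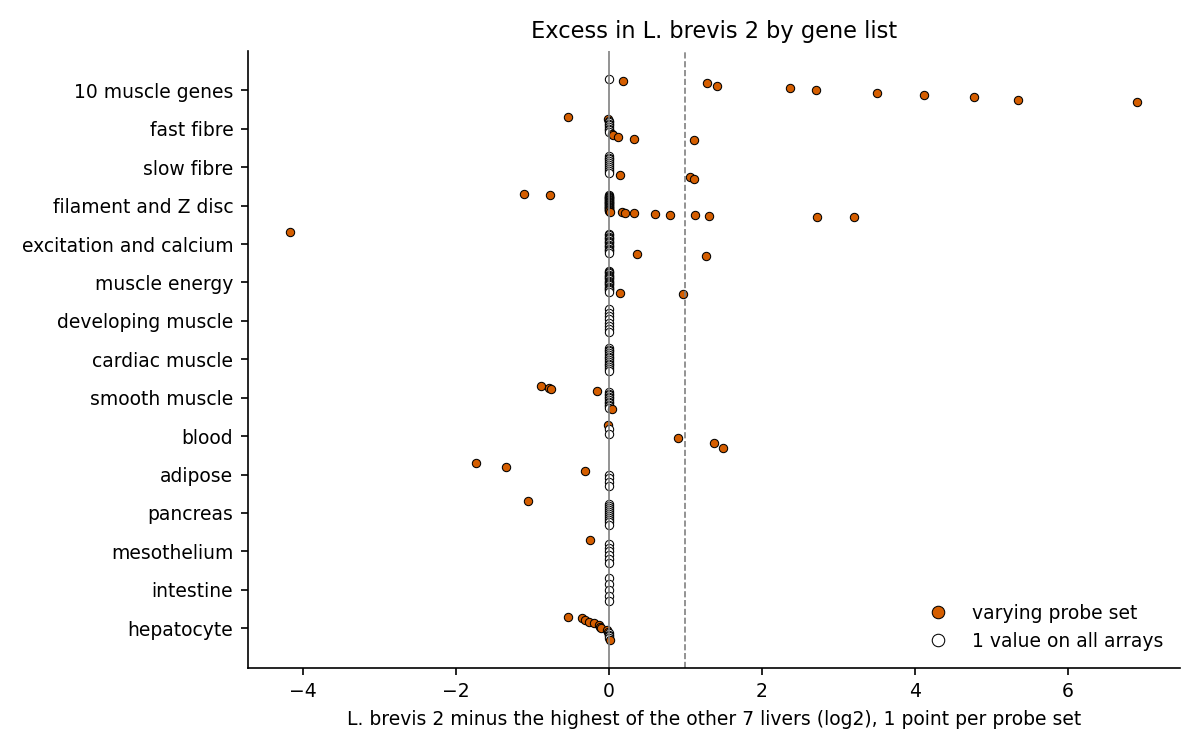
Log2 signal of L. brevis 2 minus that of the highest other liver (horizontal axis), with 1 point per probe set and 1 row per gene list. Filled points vary over the arrays, open points hold 1 value, and the dashed line marks 1 log2. Points beyond it belong to the chosen genes, the fast, slow, filament and calcium lists, and the blood list.

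Rat by rat, this muscle signal was found in L. brevis 2 among the 8 livers. It had 33 probe sets more than 1 log2 above every other liver. Of them, 17 belong to the 101 genes of the striated muscle lists (the chosen genes and the fast, slow, developing, cardiac, filament, calcium and energy lists). Of these 17, 9 are probe sets of the chosen genes, which were picked on this contrast, so the count is no support for it. Beyond 2 log2 there were 10 probe sets (0.0322% of all), 9 of them from these lists. All of those 9 but the Neb and Tpm1 probe sets, picked out after their values were seen, are of the chosen genes. Each other liver had 1 to 27 probe sets more than 1 log2 above all the rest. At most 1 of them came from these lists, namely Tpm2 in control 2 and Stac3 in L. brevis 4. The liver that ranked highest among the other 7 varied from gene to gene, and no 1 of them led in more than 3 of the 10 varying probe sets.

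**Figure D3:**
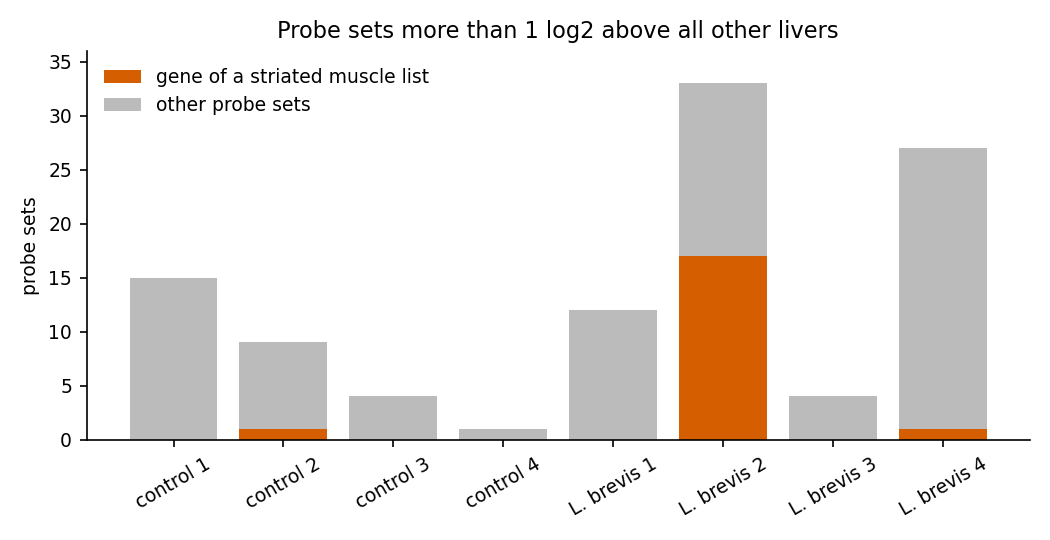
Number of probe sets (vertical axis) that read more than 1 log2 above all other livers, for each of the 8 livers, with probe sets of the striated muscle lists at the bottom of each bar. L. brevis 2 has 33, of which 17 are from these lists, and L. brevis 4 has 27, of which 1 is. Of the 17, 9 are probe sets of the chosen genes, which were picked on this contrast.

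Other tissue markers in L. brevis 2 were read beside the muscle genes. Of 5 blood genes measured 4 varied and 3 were highest in this liver (as 7.17% of all varying genes were). Hbb, beta globin, had 14.31 against 11.24 to 12.93, Alas2, the heme enzyme of red cell precursors, 8.92 against 6.89 to 8.01, and Pf4, a platelet chemokine, 10.09 against 7.13 to 8.59, while Slc4a1 was inside the range. Of 10 smooth muscle genes measured 5 varied, and 1 of them, Acta2, was highest in this liver (6.70 against 6.49 to 6.66). Myh11 (7.39 against 6.32 to 8.27), Tagln (6.87 against 6.05 to 7.65), Actg2 and Mylk lay inside the range of the other livers, as did the adipose markers Adipoq, Cfd and Fabp4, the pancreas marker Cela1 and the mesothelial marker Upk1b. No intestine gene varied. Of 10 hepatocyte genes 8 varied and none was highest in L. brevis 2; Apoa1 read 13.25 against 13.15 to 13.50 and Cyp2e1 13.58 against 13.55 to 13.71. The signal of the 5′ minus the 3′ probe set of Gapdh, a measure of RNA length, was -1.30 in L. brevis 2. It was -2.93 to -1.83 in the control livers and -2.20, -0.94 and -0.68 in L. brevis 1, 3 and 4. What part blood or other tissue in the sample has in the muscle signal was not tested. In bulk RNA, more cells of a type and more RNA per cell cannot be told apart.

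Outside every list, 10 genes with the largest excess of L. brevis 2 over the next liver were Npy, Fos, Mlf1, Agxt2, Rsad2, Dcn, Lum, Zfp354a, Insig1 and RGD1309362. Of these, Mlf1 correlated most closely with the muscle genes (7.11 against 5.50 to 5.73, Pearson r 0.990 with their mean over the 8 livers, which share 1 high point). Rsad2, an interferon-induced antiviral enzyme, had 9.64 against 8.08 to 8.42 (r 0.965). Npy, neuropeptide Y, had 9.90 against 6.96 to 7.89 (r 0.925), the largest excess of the 10 genes at 2.01 log2. Dcn and Lum, matrix proteoglycans of connective tissue, had 9.53 against 6.04 to 8.50 (r 0.667) and 8.96 against 5.33 to 7.93 (r 0.766). Fos, an immediate early gene, had 9.40 against 5.43 to 7.84 (r 0.784). For the other 4 genes the excess was 0.94 to 1.33 and r was 0.531 to 0.763.

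The diets were compared with limma over the whole table, as L. brevis minus control. None of the 10 genes passed an adjusted p of 0.05, where 0.142% of all probe sets did. Of those 44 called probe sets 7 were varying, and the rest spanned at most 0.01 log2. That share is therefore not one of measurable diet differences. Tested over varying probe sets alone, 0.0633% were called and again none of the 10 genes. For most of them the rise of the L. brevis mean rests on 1 rat, L. brevis 2. Without that rat Tnni2 (0.16, SE 0.10) and Atp2a1 (0.04, SE 0.04) kept the largest shares of their differences, and neither was called. Acta1 averaged 5.36 ± 0.20 in the control group and 7.14 ± 3.54 in the L. brevis group (SD, n = 4 each), a difference of 1.78 (SE 1.75, adjusted p = 0.750, limma). Without L. brevis 2 the L. brevis mean was 5.37 ± 0.10 (n = 3) and the difference 0.01 (SE 0.13). Myh8 went from a difference of 1.49 (SE 1.36) to 0.11 (SE 0.11), Myl1 from 1.33 (SE 1.22) to 0.09 (SE 0.11) and Myl11 from 1.14 (SE 1.03) to 0.09 (SE 0.04). Over the 10 varying probe sets all 10 differences were positive with the rat and 7 positive and 3 negative without it. Their median went from 0.77 to 0.03 log2, and the median over all varying probe sets was -0.02 in both fits. In every control liver the 5′ minus 3′ signal of Gapdh was lower than in L. brevis 2 to 4. What part RNA length has in the diet comparison was not tested.

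Tnnc2 (0.84, SE 0.96), Mb (0.71, SE 0.74) and Tnnt3 (0.42, SE 0.68) changed sign, to -0.12 (SE 0.10), -0.03 (SE 0.10) and -0.26 (SE 0.08). Tnnt3 was the 1 gene of the 10 whose remaining L. brevis livers (5.61 to 5.92) all lay below the control livers (5.97 to 6.12), as the groups were apart in 13.4% of all varying probe sets. It was also the 1 gene with an unadjusted p under 0.05 in that fit (adjusted p = 0.549, limma), against 15.2% of varying probe sets. Ckm (0.39 to 0.01), Tnni2 (0.57 to 0.16) and Atp2a1 (0.11 to 0.04) stayed positive. Adjusted p values of the 10 varying probe sets ran from 0.634 to 0.905 with all livers and from 0.549 to 1 without L. brevis 2 (limma), and 0 of them were called in either fit. In the fit without that rat 0.216% of all probe sets were called, 67 in number, of which 5 were varying.

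**Figure D4:**
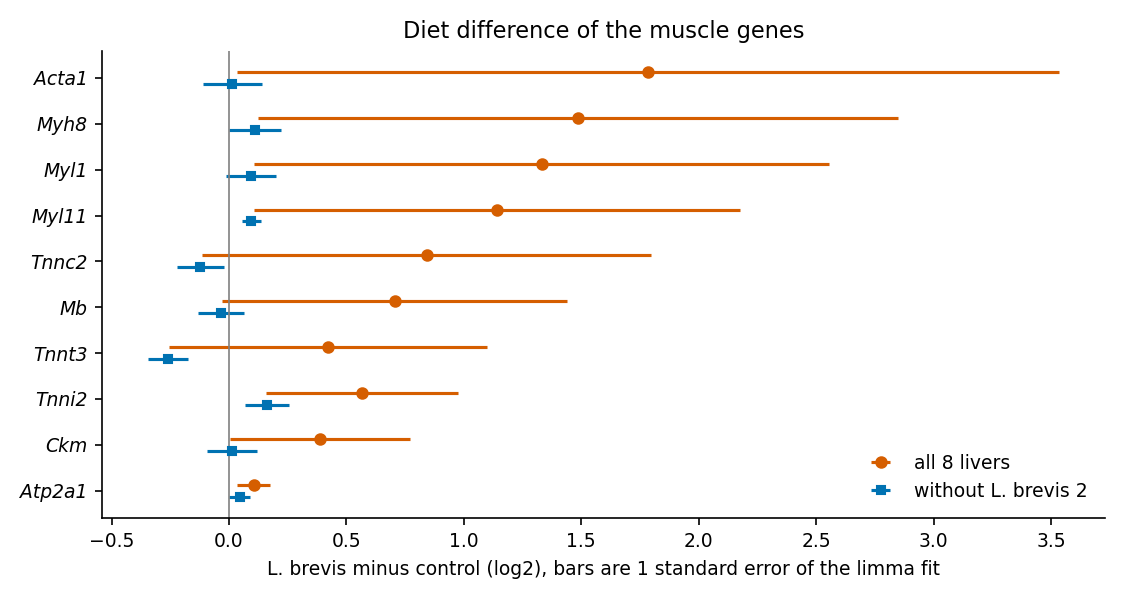
Difference between the diets (L. brevis minus control, log2, horizontal axis) for the 10 genes at their varying probe sets, with all 8 livers (circles) and without L. brevis 2 (squares). Bars are 1 standard error of the limma fit. Acta1 goes from 1.78 to 0.01.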

How the data were processed

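RNA of 8 livers was hybridised to Affymetrix 3' expression arrays after Trizol extraction, column purification and 3' in vitro transcription, per the labels' protocols. The deposited table holds log2 values normalized by the authors, with the summarisation method not given in the sources used here. Array medians were 6.61 to 6.63. Of 31099 rows, 57 array controls were left out. In the platform annotation 20826 probe sets had 1 gene symbol, 436 several and 9780 none, and 20758 symbols were updated through gene identifiers. A gene is given by its brightest probe set on average, and Tnnt3 by its varying probe set, since the brightest holds 1 value. Differences were fitted with limma 3.58.1 in R 4.3.3 (lmFit, eBayes with an intensity trend, two-sided, Benjamini-Hochberg over all 31042 probe sets, threshold 0.05), checked on simulated data. P values measure the spread between these rats. The members and lists were chosen with earlier results of these data known. Genes named are the 10 members, their fibre-type partners, up to 6 list genes past 1 log2, and the 10 genes outside the lists with the largest excess in L. brevis 2; others are given as examples of their list. Alternatives were quantile normalization, median centring, no trend, other probe set choices, a replicate block and leaving out each rat. The number of arrays limits the precision.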

Additional observations from a re-analysis of the deposited data

Results flagged for a closer look

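In groups of 4, a sample was marked when its gap to the nearest other made up more of the group's whole range than Dixon's critical value allows, which chance does in about 1 group in 20. L. brevis 2 was marked within its group for 7 of the 10 genes, on the contrast that chose them, so this count is no support for it. The same rule marked L. brevis 2 as high in 0.728% of all 6323 varying probe sets. The gap was 0.973 of the range for Acta1, 0.972 for Myl11, 0.962 for Tnnc2, 0.955 for Mb, 0.947 for Myl1, 0.945 for Myh8 and 0.891 for Tnnt3. Among the other muscle genes it was 0.963 for Myoz2, 0.942 for Ttn, 0.908 for a Tpm1 probe set, 0.896 for Neb, 0.892 for Klhl41, 0.883 for Sln and 0.866 for Myl3. Outside the lists it was 0.976 for Npy, 0.958 for Mlf1, 0.920 for RGD1309362 and 0.910 for Rsad2. Apart from Myl3, a fibre-type partner, these other genes were named for their excess in L. brevis 2, so their marks are no support either. In the control group the gap of control 4 was 0.851 of the range for Tnnt3, at 6.12 against 5.97 to 5.996.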

How the results depend on the processing

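Over all probe sets the limma fit called 44, and without any 1 rat 67 to 180, the fewest without L. brevis 2 and the most without L. brevis 1. The count was 0 under quantile normalization (3374 at an unadjusted p under 0.05) and 0 under median centring (1694), 4 over varying probe sets alone and 21 over probe sets above the median. Of the 44, 7 were varying probe sets. A replicate block gave 128, with adjusted p values of 0.694 to 0.940 for the 10 genes. Same-numbered rats correlated at 0.359, 0.203, 0.078 and 0.381 in their deviations from the group means, and not every rat correlated best with its own number. As 1 of the 4 lay below 0.1 and the labels name no shared source, the fit without the block was kept, and whether the numbers pair the rats stays unknown. No gene of the 10 was called under any alternative (lowest adjusted p 0.367). The cause of these differences was not tested.

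The median diet difference of the 10 genes (0.77) ran from 0.029 without L. brevis 2 to 1.06 without L. brevis 1. With single rats left out the difference of Tnnc2 ran from -0.12 to 1.18 and that of Mb from -0.035 to 0.98, both negative without L. brevis 2. The median excess of L. brevis 2 ran from 3.11 to 3.33 with another rat left out, that of Myl11 from 4.12 to 4.20, of Tnnc2 from 3.51 to 3.75, of Tnni2 from 1.42 to 1.70 and of Mb from 2.71 to 2.90. That of Tnnt3 was 0 at its brightest probe set, 1.19 as a mean over its probe sets and 2.37 at the varying one, the last an alternative chosen after the data were seen.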

Other observations

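Several smooth muscle genes had their highest value in a liver other than L. brevis 2, while Acta2 was highest there by a small margin. Myh11, the smooth muscle heavy chain, read 7.81, 8.27, 6.32 and 6.95 in control 1 to 4 and 6.86, 7.39, 7.14 and 6.48 in L. brevis 1 to 4. Tagln, transgelin, had its highest values in control 2 (7.65) and control 1 (7.10), as did Tpm2 (8.33 and 7.31). Actg2, enteric smooth muscle actin, had 7.18 in control 2 and 6.22 to 6.47 in the other livers.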
